A study of Mus musculus with 25 samples.

Results

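The mesenchyme of the submandibular salivary gland was compared with the mesenchyme of ventral skin in mouse embryos at E13.5. The comparison takes 10 of the 25 samples of a series with 5 tissues. By their tissue labels, 5 are salivary mesenchyme of this stage (E13.5 SM) and 5 are ventral skin mesenchyme (E13.5 VM), and every gene with enough reads to be tested was included. Both groups came from C57Bl/6JOlaHsd embryos of the same stage that carried no transgene or treatment named in the labels. Both tissues were treated with Dispase II and pancreatin-trypsin before the epithelium was removed, and the skin mesenchyme was taken from the ventral side away from the mammary buds. Each sample pooled the tissue of 2 to 3 littermates, with 3 litters behind the 5 samples of each tissue. The sources used here do not say which samples shared a litter, so all pools were treated as separate and p-values measure the spread between pools. The labels give no sex for these pools. A further E13.5 tissue, mammary mesenchyme (E13.5 MM), is drawn on at the end for values side by side.

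Mesenchyme is the loose embryonic connective tissue that lies beneath an epithelium and instructs it by secreted signals. The mesenchyme of the jaws and of the salivary glands descends largely from cranial neural crest, and that of the first pharyngeal arch develops without Hox gene expression, whereas the connective tissue of the trunk comes from mesoderm, in which Hox genes record the position along the body. Salivary glands branch from the oral epithelium under the control of mesenchymal signals, of which FGF10, received by FGFR2b on the epithelium, is the best known. The developing submandibular gland also houses a parasympathetic ganglion. Ventral skin mesenchyme at this stage is a future dermis, a tissue patterned by Wnt signalling before hair follicles form.

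Sequences around the transcription start of 4 genes are shown, because these genes stand at the ends of the comparison: Barx1 and Aldh1a2 were among the genes most raised in E13.5 SM, and Hoxa7 and Sim1 were nearly silent there. They were chosen after their values were seen. Each runs 5′ to 3′ on the strand of the gene from 250 bases before to 50 bases after the start that RefSeq gives on GRCm38.p6, and capitals mark CG dinucleotides.
Barx1, at chr13:48662786-48663085 on the plus strand: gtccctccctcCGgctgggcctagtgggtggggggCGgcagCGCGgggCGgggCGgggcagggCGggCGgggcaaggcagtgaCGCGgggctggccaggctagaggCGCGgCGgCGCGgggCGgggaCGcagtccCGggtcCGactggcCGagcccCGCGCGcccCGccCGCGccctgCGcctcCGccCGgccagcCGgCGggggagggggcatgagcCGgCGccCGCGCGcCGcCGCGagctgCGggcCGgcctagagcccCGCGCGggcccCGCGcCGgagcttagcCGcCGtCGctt
Aldh1a2, at chr9:71215539-71215838 on the plus strand: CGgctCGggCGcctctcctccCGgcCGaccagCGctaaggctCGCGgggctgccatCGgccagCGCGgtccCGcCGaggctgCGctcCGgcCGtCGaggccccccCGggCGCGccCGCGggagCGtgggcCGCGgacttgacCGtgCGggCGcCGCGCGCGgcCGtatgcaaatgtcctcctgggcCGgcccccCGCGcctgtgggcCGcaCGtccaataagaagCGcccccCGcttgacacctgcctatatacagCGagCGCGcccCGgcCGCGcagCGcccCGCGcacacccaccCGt
Hoxa7, at chr6:52218524-52218823 on the minus strand: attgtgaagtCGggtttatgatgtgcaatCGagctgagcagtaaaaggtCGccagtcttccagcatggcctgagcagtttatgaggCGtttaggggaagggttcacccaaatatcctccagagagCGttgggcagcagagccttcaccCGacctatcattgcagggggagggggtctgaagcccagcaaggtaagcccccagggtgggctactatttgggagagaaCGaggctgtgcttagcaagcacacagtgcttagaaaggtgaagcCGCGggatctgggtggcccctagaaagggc
Sim1, at chr10:50895401-50895700 on the plus strand: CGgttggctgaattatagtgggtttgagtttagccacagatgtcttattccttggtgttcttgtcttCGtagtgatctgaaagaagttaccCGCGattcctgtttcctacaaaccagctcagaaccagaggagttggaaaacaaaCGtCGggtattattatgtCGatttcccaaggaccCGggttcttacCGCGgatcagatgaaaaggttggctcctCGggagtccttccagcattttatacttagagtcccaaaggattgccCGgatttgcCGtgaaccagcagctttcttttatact
The windows of Barx1 and Aldh1a2 held 50 CG dinucleotides each, that of Sim1 held 13 and that of Hoxa7 held 9. The median was 18 over the windows of tested genes, 17 over those of genes higher in E13.5 SM and 17 over those of genes lower there, so that the 4 genes shown do not stand for their groups. TATAAA, searched on both strands, was present in the window of Sim1, in 13.62% of all 32851 windows and 8.858% of those of tested genes. TAATTA, a core sequence that many homeodomain proteins bind and that reads the same on both strands, was in none of the 4 and in 5.291% of all windows. Over the windows of tested genes the share with TAATTA was 3.408%. A match of this kind describes the letters of the window and does not show that a protein binds there.

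Total counts per sample ran from 25209591 to 28019643 in E13.5 SM and from 26078874 to 32887160 in E13.5 VM. On log2 CPM (counts scaled to library size), samples correlated over genes at 0.9738 to 0.9846 within E13.5 SM, at 0.9654 to 0.9846 within E13.5 VM and at 0.8907 to 0.9217 between the tissues. No pair of samples held identical values. Several samples stood apart in single respects. Skeletal muscle genes summed to 934 CPM in E13.5 SM replicate 1 against 165 to 273 in the others, and Ddx3y of the Y chromosome had 0 counts in that pool. A group of 11 predicted genes with repeat-like counts, picked out after their values were seen, took 10.1% of all counts in E13.5 VM replicate 1, and between 0.0315% and 3.61% elsewhere. E13.5 VM replicate 2 was apart from its group in a number of single genes given below. Counts are given with and without these 3 samples where that matters.

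Of 17657 genes tested, 5338 (30.2%) were called different between E13.5 SM and E13.5 VM. Calls rest on the quasi-likelihood test of edgeR. A gene was called where its adjusted p was below 0.05, its log2 fold change was 0.58 or more in either direction and, in the tissue with the higher level, its normalized counts averaged more than 50, where a normalized count is a count scaled to the mean library size. Higher in E13.5 SM were 2748 genes (15.6%) and lower were 2590 (14.7%), and these shares are the background against which counts over gene lists are given. Differences were often large. In 623 of the higher and 474 of the lower genes the fold was at least 4, in 311 and 239 at least 8, and in 78 and 89 at least 32. The samples of the tissues did not overlap for 4776 of the 5338 called genes. Genes called by fold and adjusted p tend to separate, and overlap was not counted over all genes tested. The count therefore adds little to the calls. For the 15 genes named as most changed in each direction, no overlap was a condition of being named, so it adds nothing there. The median log2 fold change over all genes tested was -0.04. When the 3 samples that stood apart were left out together, 2723 genes were higher and 2523 lower, and 4947 of the calls were kept. Since these are bulk samples, fewer cells of a type and less RNA per cell cannot be told apart in any of the values that follow.

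**Figure D1:**
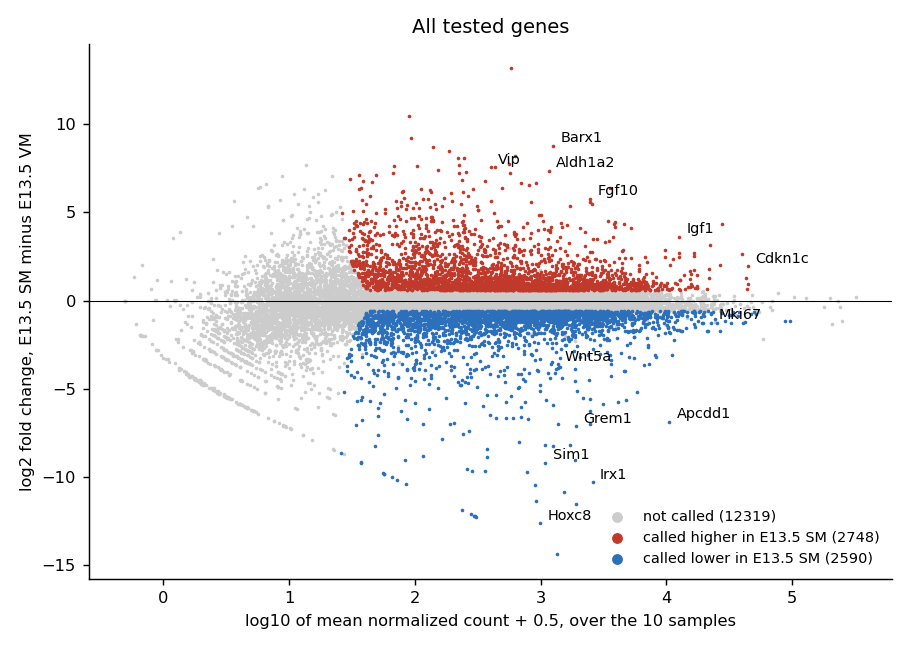
Each point is one of the 17657 genes tested, placed by its mean normalized count over the 10 samples (horizontal, log10 scale) and its log2 fold change between E13.5 SM and E13.5 VM (vertical). The 2748 genes called higher in E13.5 SM lie above zero and the 2590 called lower lie below, and both spread widely, with Barx1 among the highest and Hoxc8 among the lowest.

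The plot of all genes shows transcription factor genes at both extremes. Among the 15 genes with the largest rise in E13.5 SM were Barx1, a homeobox gene of the jaw mesenchyme, the neuronal homeobox genes Tlx2 and Phox2a, and Aldh1a2, which encodes a retinoic acid synthesising enzyme. Also among them were Folh1, a folate hydrolase, Aox3, an aldehyde oxidase, and Olfr78, an olfactory receptor, with log2 fold changes of 8.47, 7.77 and 7.67 (Folh1 9.32 without E13.5 VM replicate 5, and Aox3 8.51 without replicate 3). Of the 15 genes that fell most, 10 were Hox genes. The others were the Iroquois homeobox genes Irx1 and Irx5, the mast cell protease Cma1, the carboxypeptidase-like Cpxm2 and Itgbl1, which encodes a secreted protein related to integrin beta chains. Cpxm2 went from 3807 ± 615 normalized counts in E13.5 VM to 1.15 ± 1.27 in E13.5 SM (mean ± SD, n = 5 each), and Itgbl1 from 3090 ± 291 to 1.45 ± 1.62.

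Hox genes were close to absent from E13.5 SM. Reads were enough to test 32 of 39 Hox genes, and 24 were lower in E13.5 SM and 0 higher, with a median log2 fold change of -7.04 (-6.47 with genes at 0 counts put at their bound). All 39 genes together summed to 4.463 to 8.504 CPM in the E13.5 SM samples and to 495 to 551 CPM in the E13.5 VM samples. In E13.5 SM 16 of the 39 had 0 counts in every sample and 9 had 1 to 3 counts in all. The 8 tested genes that were not called had mean normalized counts of at most 43.6 in E13.5 VM, below the threshold of 50.

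Among the Hox genes with at most 3 counts in E13.5 SM, Hoxc8 on chromosome 15 had the most in E13.5 VM. In replicates 1 to 5 Hoxc8 had 0, 0.957, 0, 0 and 0 normalized counts in E13.5 SM, and 2218, 1939, 2068, 2019 and 1649, in the same order, in E13.5 VM. Only 1 read was counted over the 5 E13.5 SM samples against 10636 in E13.5 VM, a ratio of 10335 (95% Poisson interval 1855 to 408225, which covers counting error only). Hoxa7 and Hoxc6 had 0 counts in all E13.5 SM samples and 3133 and 3210 counts in E13.5 VM. Against 3 counts over the 5 samples, they were at least 1042-fold and at least 1057-fold lower in E13.5 SM. Hoxa10 was at least 991-fold and Hoxc10 at least 252-fold lower by the same reckoning. Neighbouring Hox genes overlap in the annotation and Salmon shares reads between them, so single members of a cluster are less certain than their sum.

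Most of the few Hox reads of E13.5 SM fell on Hoxa2, Hoxd8 and Hoxb2, with 247, 226 and 157 counts over the 5 samples. Hoxa2 is known for its role in the second pharyngeal arch, the one next to the arch of the jaws. The 5 samples of E13.5 SM held 68.1, 23.9, 35.6, 41.3 and 62.5 normalized counts of Hoxa2, and those of E13.5 VM held 112, 176, 112, 117 and 124. Every E13.5 SM sample lay below every E13.5 VM sample, and the log2 fold change was -1.47 ± 0.24 (SE, adjusted p = 1.09e-05). Per transcript length Hoxa2 stood at 3.433 TPM (transcripts scaled to length and library size) in E13.5 SM, Hoxd8 at 2.013 and Hoxb2 at 1.111, and the next, Hoxd4, at 0.3844 (Hoxb2, Hoxd4 and Hoxd8 were named after their values were seen). In E13.5 VM the highest were Hoxd8 at 82.64, Hoxc8 at 72.52 and Hoxc5 at 62.46 TPM. The plot of Hox levels by paralogue number shows E13.5 VM above 1 TPM for most of the genes numbered 2 to 10 and for none beyond.

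**Figure D2:**
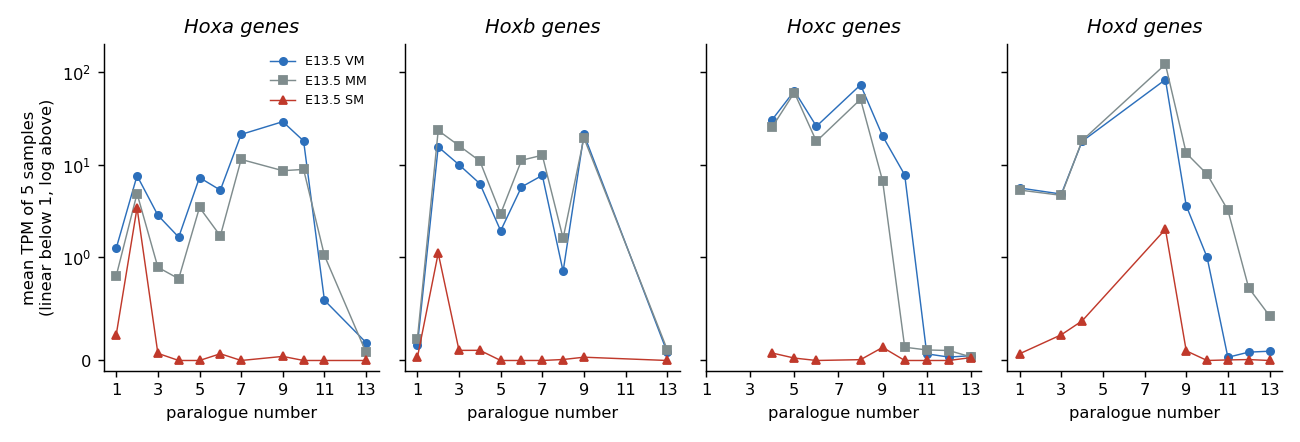
Mean TPM of the 39 Hox genes by paralogue number (horizontal) in the 4 clusters (panels), for E13.5 VM, E13.5 MM and E13.5 SM, on a vertical axis that is linear near 0 and logarithmic above. E13.5 SM lies at or near 0 in all panels except for Hoxa2 (3.433), Hoxb2 (1.111) and Hoxd8 (2.013), while E13.5 VM reaches 82.64 at Hoxd8.

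Transcription factors of the jaw and the oral glands were mostly higher in E13.5 SM. Of 24 such genes tested, 16 were higher in E13.5 SM and 5 lower (median log2 fold change 1.59). Barx1, which marks the mesenchyme of molar teeth, jaw glands and stomach, lies at chr13:48662998-48666507 (plus strand, GRCm38) in the annotation. For Barx1, normalized counts were 2316, 2704, 2438, 2871 and 2301 in E13.5 SM, compared with 3.22, 8.30, 9.41, 3.50 and 2.81 in E13.5 VM. Barx1 had a log2 fold change of 8.80 ± 0.26 (SE, adjusted p = 2.55e-19). Pitx1, a homeobox gene of the jaw and the hindlimb, was present in both tissues. Normalized counts of Pitx1 came to 3579, 4012, 3864, 5230 and 3440 in E13.5 SM, and to 552, 677, 397, 453 and 289.9 in E13.5 VM. All samples of E13.5 SM were higher than those of E13.5 VM, at a log2 fold change of 3.09 ± 0.18 (SE, adjusted p = 2.50e-13). Lhx8 (5.40 ± 0.40), a LIM homeobox gene of the oral mesenchyme, and Tbx22 (4.54 ± 0.25), a T-box gene of the palate, rose as well (log2 fold change ± SE). Nr5a2, a nuclear receptor, rose to a mean of 7458 ± 492 normalized counts from 334 ± 20.3, and Klf14, a Krüppel-like factor, to 1481 ± 152 from 204 ± 18.9. Without E13.5 VM replicate 3, Lhx8 stood at 6.03.

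Distal-less genes pattern the arches of the face along their height, and 4 of them were higher in E13.5 SM. The Dlx and Msx list held 8 tested genes, of which 4 were higher and 1 lower (median 2.67). The log2 fold changes were 5.75 ± 0.57 for Dlx6, 4.99 ± 0.59 for Dlx5, 4.12 ± 0.39 for Dlx2 and 3.76 ± 0.22 for Dlx1, and that of Dlx5 was 5.73 without E13.5 VM replicate 1. The gene that fell, Msx1 (-1.10 ± 0.28), was no longer called without the 3 samples that stood apart. Dlx6 had 194 to 256 normalized counts across the E13.5 SM samples and 0 to 9.67 across E13.5 VM. Against this direction went 5 members of the jaw list that were lower in E13.5 SM. Isl1, a LIM homeobox gene, was one of them. E13.5 VM samples had 269.8, 124, 325, 136 and 210.1 normalized counts of Isl1, and E13.5 SM samples had 43.9, 13.4, 19.2, 18.9 and 27.8. That gave Isl1 a log2 fold change of -3.10 ± 0.42 (SE, adjusted p = 6.97e-07), and no sample of one tissue reached into the range of the other. Barx2 (-2.28 ± 0.44), another homeobox gene, fell too, and without E13.5 SM replicate 1, the sample with the most skeletal muscle RNA, its log2 fold change was -2.86.

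**Figure D3:**
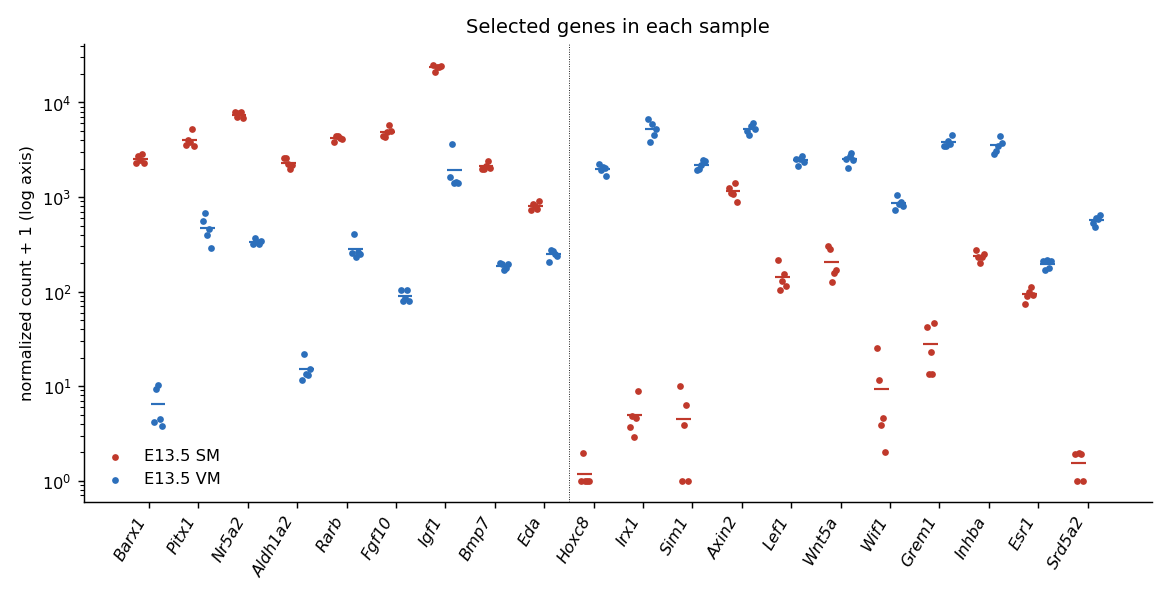
Normalized counts plus 1 (vertical, log axis) of 20 genes in each of the 5 E13.5 SM and 5 E13.5 VM samples, one point a sample, with a bar at the mean. Barx1, Aldh1a2 and Fgf10 lie far higher in E13.5 SM, Hoxc8, Irx1, Sim1 and Srd5a2 are at or near 0 there, and Bmp7 and Eda differ less.

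Transcription factors of the trunk and the dermis were mostly lower in E13.5 SM: of 31 tested, 22 fell and 2 rose (median -3.58). Irx1, an Iroquois homeobox gene of chromosome 13, was nearly silent there. Irx1 showed 2.69, 3.83, 1.92, 3.60 and 7.94 normalized counts in E13.5 SM, against 6653, 3844, 5866, 4512 and 5183 in E13.5 VM. Irx1 was thus lower in E13.5 SM by a log2 fold change of -10.32 ± 0.28 (SE, adjusted p = 1.85e-19). Sim1, a basic helix-loop-helix factor, had a similar span. In E13.5 SM Sim1 stood at 8.96, 0, 2.88, 5.39 and 0 normalized counts, and in E13.5 VM at 1910, 1958, 2165, 2463 and 2431. Its log2 fold change was -9.21 ± 0.38 (SE, adjusted p = 9.69e-16), and the tissues did not overlap. En1, an engrailed homeobox gene, went from 741 ± 25.9 to 2.08 ± 1.06, Pax1, a paired box gene, from 166 ± 42.9 to 0.191 ± 0.428, and Emx2, a homeobox gene of brain and urogenital tissue, from 170.4 ± 26.7 to 1.498 ± 1.09 normalized counts. Sim1 stood at -9.92 without E13.5 SM replicate 1.

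Several factors known for roles in skin mesenchyme fell too. Tbx15, a T-box gene of dermis, had a log2 fold change of -3.72 ± 0.21, and Twist2, a dermal basic helix-loop-helix factor, and Runx1 had changes of -4.26 ± 0.15 and -4.79 ± 0.19 (Twist2 and Runx1 were named after their values were seen). The 2 genes that rose in this list were Tbx2 (1.86 ± 0.14) and Tbx3 (1.92 ± 0.19), a pair of related T-box repressors. Among 104 homeobox genes recognised by their sequence 15 were higher and 36 lower, and without the Hox genes 15 of 72 were higher and 12 lower (median -0.22). Of the 36 that were lower, 24 were thus Hox genes. Of 16 dermal fibroblast genes, 5 were higher and 6 lower (median -0.39). Pdgfra, a receptor that marks mesenchyme, had 25417 ± 1416 normalized counts in E13.5 SM, against 29450 ± 3467 in E13.5 VM and was not called.

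Retinoic acid is made from retinol in successive oxidation steps, bound by carrier proteins, sensed by nuclear receptors and cleared by CYP26 enzymes. In E13.5 SM 10 of 18 genes of this pathway were higher and 4 lower (median 1.55). Aldh1a2, the main embryonic enzyme of the last step, lies at chr9:71215789-71296243 (plus strand, GRCm38). The 5 samples of E13.5 SM held 2560, 2589, 2222, 1967 and 2176 normalized counts of Aldh1a2, and those of E13.5 VM held 10.8, 20.8, 12.5, 12.2 and 14.1. The log2 fold change of Aldh1a2 was 7.35 ± 0.24 (SE, adjusted p = 2.52e-18). Its relative Aldh1a3 went the other way, with 346 ± 30.2 normalized counts in E13.5 SM, against 707 ± 64.6 in E13.5 VM (-1.03 ± 0.17). Rdh10, an enzyme of the earlier step, rose by 2.36, and Dhrs3, which returns retinaldehyde to retinol, by 2.77 on the log2 scale (both named after their values were seen).

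Rarb and Cyp26b1, genes that retinoic acid induces, also rose. Rarb, which encodes one of its receptors, was high in all E13.5 SM samples. For Rarb, normalized counts were 3838, 4452, 4389, 4205 and 4132 in E13.5 SM, compared with 257, 402, 229, 259 and 251 in E13.5 VM. With no overlap between the tissues, Rarb had a log2 fold change of 3.91 ± 0.14 (SE, adjusted p = 5.69e-18). E13.5 VM replicate 2 was apart from its group and still below every E13.5 SM sample. Cyp26b1 had 277 to 522 normalized counts in E13.5 SM against 24.4 to 62.2 in E13.5 VM (3.19 ± 0.33). Crabp1, a cellular binding protein for retinoic acid, was the pathway member with the largest fall. Normalized counts of Crabp1 came to 172, 153, 162, 126 and 136 in E13.5 SM, and to 9148, 6350, 9111, 8779 and 7005 in E13.5 VM. All samples of E13.5 SM were lower than those of E13.5 VM, at a log2 fold change of -5.75 ± 0.22 (SE, adjusted p = 1.17e-16). Rxrg and Rxra, receptors that pair with retinoic acid receptors, fell by less (-1.34 ± 0.35 and -0.68 ± 0.07), and Rxrg stood at -1.92 without E13.5 SM replicate 1.

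Fgf10 was the most raised FGF ligand gene. E13.5 VM samples had 103, 77.8, 84.7, 102 and 77.9 normalized counts of Fgf10, and E13.5 SM samples had 4420, 4277, 4818, 5791 and 5013. That gave Fgf10 a log2 fold change of 5.77 ± 0.16 (SE, adjusted p = 4.64e-20), and no sample of one tissue reached into the range of the other. It lies at chr13:118669791-118792115 (plus strand, GRCm38). Of 15 FGF ligand genes tested 5 were higher and 2 lower (median 0.22). Fgf7, which acts through the same epithelial receptor, rose by 1.53 ± 0.14, and Fgf12, an intracellular relative, by 1.77 ± 0.19. Fgf9 fell (-1.500 ± 0.37, or -2.10 without E13.5 SM replicate 1), as did Fgf14 (-1.52 ± 0.29).

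Receptors and targets of FGF were divided. Of 19 genes 7 were higher and 3 lower (median 0.14). The mesenchymal receptor gene Fgfr1 fell to 3928 ± 439 from 6217 ± 549.8 normalized counts, and Fgfr2 had 1742 ± 75.4 and 1578 ± 141 and was not called. Spry4 (1.28 ± 0.13), Spry3 (2.29 ± 0.19) and Flrt2 (1.33 ± 0.12) rose, whereas Dusp6 (-0.88 ± 0.11) and Il17rd (-0.94 ± 0.11), feedback inhibitors of the same pathway, fell.

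Genes of the insulin-like growth factor (IGF) system differed at the level of the ligand, its binding proteins and the proteases that release it. Igf1 was higher in E13.5 SM by a large margin. Igf1 showed 25039, 20857, 23738, 23970 and 24075 normalized counts in E13.5 SM, against 1638, 3677, 1399, 1432 and 1402 in E13.5 VM. Igf1 was thus higher in E13.5 SM by a log2 fold change of 3.62 ± 0.25 (SE, adjusted p = 1.40e-11), with no overlap between samples. E13.5 VM replicate 2 was apart from its group, and the lowest E13.5 SM sample was still well above it. Igf2 had 53289 ± 7569 and 43378 ± 5158 normalized counts and was not called. The proteases of this system moved in opposite directions. Pappa, which cleaves IGFBP4, had 5736 to 7448 normalized counts in E13.5 SM, against 219 to 323 in E13.5 VM (4.53 ± 0.21). In E13.5 SM Pappa2 stood at 15.2, 18.2, 14.4, 9.89 and 17.9 normalized counts, and in E13.5 VM at 2345, 909.7, 1230, 2034 and 1356. Its log2 fold change was -6.70 ± 0.35 (SE, adjusted p = 1.28e-13), and the tissues did not overlap. Pappa2 cleaves IGFBP3 and IGFBP5. Igfbp6 (3.23 ± 0.21) and Igfbp7 (2.20 ± 0.15) rose and Igfbp5 (-1.37 ± 0.19) fell. Over the list, 6 of 14 genes were higher and 3 lower (median 0.27).

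A list of other signalling ligands, not all of which act on epithelium, was also compared. Of 16 genes, 6 were higher and 4 lower (median 0.50). Pthlh, the parathyroid hormone-related peptide, was close to absent from E13.5 VM. The 5 samples of E13.5 SM held 262, 339, 383, 293 and 255 normalized counts of Pthlh, and those of E13.5 VM held 0, 3.11, 4.70, 0 and 0. The log2 fold change of Pthlh was 7.43 ± 0.69 (SE, adjusted p = 1.76e-09). Its log2 fold change was 8.47 without E13.5 VM replicate 3, since single reads weigh on values so near 0. The receptor gene Pth1r ran the other way, with 879.7 ± 80.4 normalized counts in E13.5 SM, against 4031 ± 325 in E13.5 VM (-2.20 ± 0.10). Hgf, the ligand of MET, rose by 2.45 ± 0.21, Nrg3, a ligand of ERBB4, by 4.67 ± 0.45, Nrg1 by 0.98 ± 0.17 and Pdgfd by 3.54 ± 0.14. Pdgfa (-1.10 ± 0.23) and Pdgfc (-2.01 ± 0.27) fell. Ectodysplasin, a ligand of skin appendages and salivary glands, was higher as well. For Eda, normalized counts were 725, 853, 811, 741 and 897 in E13.5 SM, compared with 203, 273, 267, 251 and 239 in E13.5 VM. With no overlap between the tissues, Eda had a log2 fold change of 1.71 ± 0.12 (SE, adjusted p = 3.12e-12). The receptor gene Eda2r rose (2.56 ± 0.16), while the adaptor gene Edaradd (-2.47 ± 0.22) and Tnfrsf19, a related receptor, fell. Tnfrsf19 had 216 to 484 normalized counts in E13.5 SM, against 10487 to 12425 in E13.5 VM (-5.19 ± 0.31).

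Bone morphogenetic protein (BMP) ligands were split by member. Of 24 genes of ligands, receptors and targets 9 were higher and 6 lower (median 0.05). Bmp7 was the ligand with the largest rise. Normalized counts of Bmp7 came to 1979, 1977, 2137, 2412 and 2014 in E13.5 SM, and to 202, 197, 169, 175 and 195 in E13.5 VM. All samples of E13.5 SM were higher than those of E13.5 VM, at a log2 fold change of 3.49 ± 0.15 (SE, adjusted p = 2.46e-16). Gdf5 (2.53 ± 0.32) and Gdf6 (1.497 ± 0.39, or 2.27 without the 3 samples that stood apart) rose from low levels, and Bmpr1b, a type I receptor gene, by 1.78 ± 0.20. Bmp5 (-2.65 ± 0.28), Bmp4 (-1.30 ± 0.19) and Bmp2 (-1.21 ± 0.14) fell.

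BMP and activin antagonists were more often lower in E13.5 SM. Of 14 genes 6 were lower in E13.5 SM and 2 higher (median -0.63). Grem1 had the largest difference. E13.5 VM samples had 3433, 3480, 3938, 3660 and 4491 normalized counts of Grem1, and E13.5 SM samples had 41.2, 12.4, 22.1, 12.6 and 45.7. That gave Grem1 a log2 fold change of -7.14 ± 0.35 (SE, adjusted p = 4.96e-14), and no sample of one tissue reached into the range of the other. Fst (-0.74 ± 0.20) fell too, while Chrdl1 (4.51 ± 0.20) and Chrd (1.58 ± 0.18), which encode proteins of the chordin family, rose. In the TGF-beta and activin list 6 of 18 genes were lower and 1 higher (median -0.31), and the count of higher genes ran from 0 to 3 as single samples were left out. Inhba, the activin beta A subunit, had 202 to 272 normalized counts in E13.5 SM, against 2872 to 4388 in E13.5 VM (-3.88 ± 0.24). Lrrc32, which presents latent TGF-beta, fell by a like amount (-3.84 ± 0.13), and Ltbp1, a latency binding protein, by less (-2.39 ± 0.15).

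In the canonical Wnt feedback list 11 of 17 genes were lower in E13.5 SM and 3 higher (median -2.20). The list also holds targets and transcription factors of the pathway, so not every member is a readout of beta-catenin. Axin2 is the most used readout among them. Axin2 showed 1243, 1115, 1087, 1411 and 879.7 normalized counts in E13.5 SM, against 4996, 4558, 5623, 6017 and 5195 in E13.5 VM. Axin2 was thus lower in E13.5 SM by a log2 fold change of -2.20 ± 0.11 (SE, adjusted p = 5.25e-15), with no overlap between samples. Lef1, a transcription factor of the pathway, went from 2454 ± 220.2 to 142 ± 43.8 normalized counts and Sp5 from 534 ± 86.4 to 3.09 ± 3.41. Apcdd1, which is both a target and an inhibitor, had the most counts of these genes in skin. In E13.5 SM Apcdd1 stood at 135, 231, 158, 174 and 182 normalized counts, and in E13.5 VM at 23119, 16917, 22318, 21108 and 21371. Its log2 fold change was -6.90 ± 0.18 (SE, adjusted p = 3.52e-20), and the tissues did not overlap. The exceptions that rose were Tcf7l2 (2.11 ± 0.21), Tcf7l1 and Lgr5, of which the last 2 had log2 fold changes of 0.65 ± 0.21 and 0.71 ± 0.19 and samples that overlapped. Tcf7l1 was not called without E13.5 SM replicate 4 or without E13.5 VM replicate 2.

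Among Wnt ligands and R-spondins 2 of 16 genes were higher and 5 lower (median -0.64). Wnt5a, a ligand of the non-canonical pathway, was lower in every E13.5 SM sample. The 5 samples of E13.5 SM held 299, 284, 124, 156 and 169 normalized counts of Wnt5a, and those of E13.5 VM held 2539, 2034, 2699, 2889 and 2490. Every E13.5 SM sample lay below every E13.5 VM sample, and the log2 fold change was -3.61 ± 0.20 (SE, adjusted p = 1.24e-13). Wnt11 (-2.95 ± 0.15) and the R-spondin gene Rspo1 (-5.39 ± 0.20) fell as well, while Wnt2 (2.29 ± 0.21) and Rspo2 (2.08 ± 0.44) rose. Receptor genes leaned towards E13.5 SM, with 9 of 18 higher and 4 lower (median 0.63). Fzd8 (1.35 ± 0.13), Fzd7 (1.27 ± 0.14) and Lgr4 (1.13 ± 0.10) rose and Fzd10 (-3.58 ± 0.29) and Lgr6 (-2.26 ± 0.26) fell.

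Secreted and membrane antagonists of Wnt were also lower in E13.5 SM, 12 of 20 against 5 that rose (median -1.07). Wif1 binds Wnt proteins outside the cell. For Wif1, normalized counts were 24.2, 10.5, 2.88, 3.60 and 0.993 in E13.5 SM, compared with 729.8, 1060, 853, 889.7 and 807 in E13.5 VM. With no overlap between the tissues, Wif1 had a log2 fold change of -6.64 ± 0.53 (SE, adjusted p = 3.37e-10). Its highest E13.5 SM sample was replicate 1, and the log2 fold change was -7.55 without it. Dkk1 had 2 counts over all E13.5 SM samples and 549 in E13.5 VM, a ratio of 279 (interval 77.3 to 2306, counting error only). Notum, which removes the lipid of Wnt proteins, fell by 5.80 on the log2 scale, Dkk2 by 2.53 and Sostdc1, which acts on BMP as well, by 3.42. Sfrp4 (2.69 ± 0.31) and Sfrp2 (1.27 ± 0.23) were the antagonists that rose most. Apcdd1, Notum and Dkk1 are members of both this list and the feedback list.

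**Figure D4:**
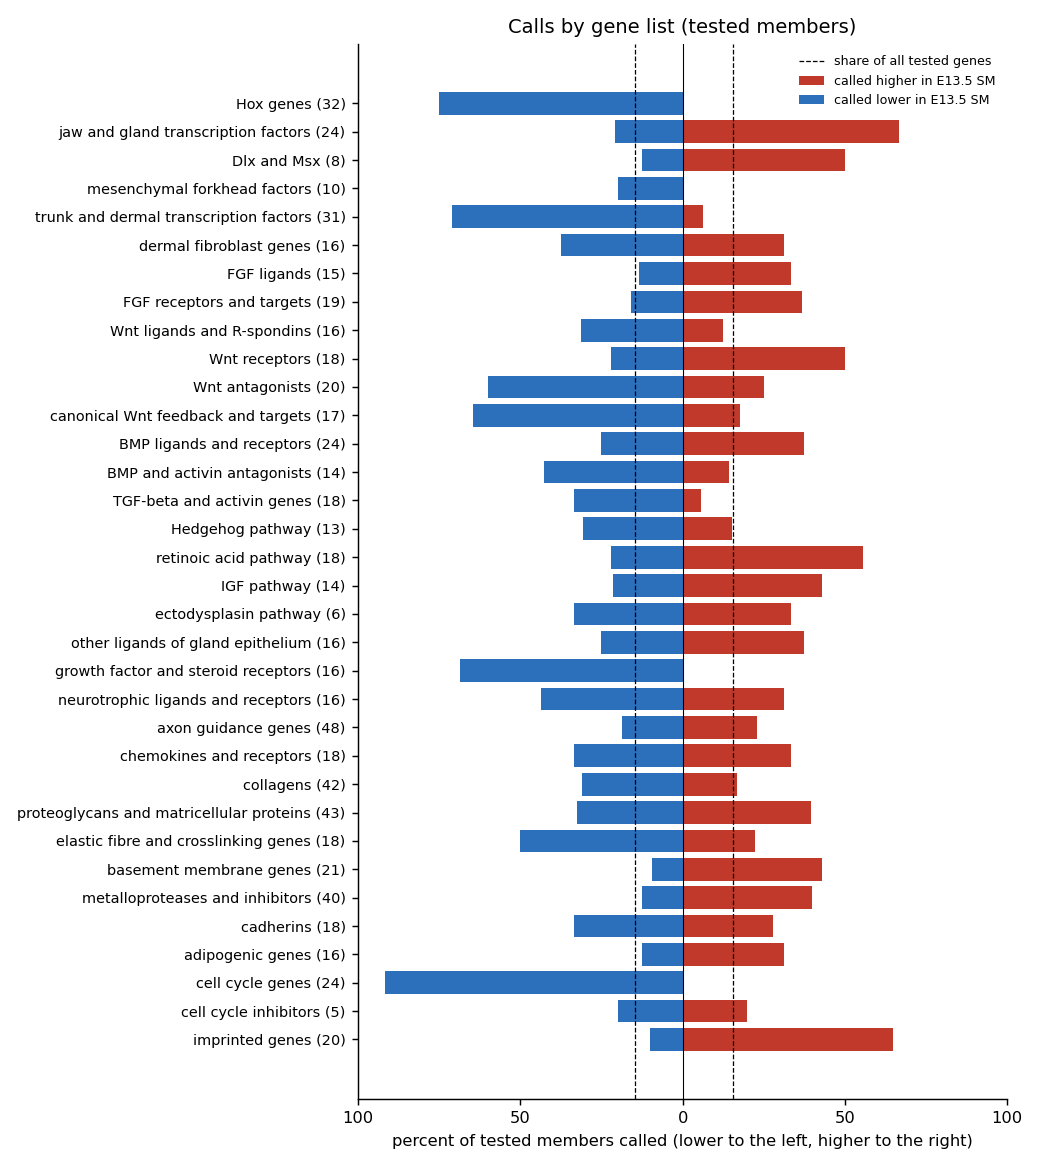
Percent of the tested members of each gene list that were called higher (right) or lower (left) in E13.5 SM, with the number tested in brackets and dashed lines at the shares over all genes (15.6% and 14.7%). Hox genes, trunk and dermal factors and cell cycle genes extend to the left, and jaw and gland factors, imprinted genes and retinoic acid genes to the right.

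The plot of calls per list puts these groups beside one another. In the list of receptors for growth factors and steroid hormones, 11 of 16 genes were lower in E13.5 SM and 0 higher (median -1.02). Growth factor receptor genes placed in other lists went both ways. Esr1 encodes an estrogen receptor. Normalized counts of Esr1 came to 72.6, 89.0, 99.0, 110.5 and 91.3 in E13.5 SM, and to 209.6, 167, 217, 178 and 210.1 in E13.5 VM. All samples of E13.5 SM were lower than those of E13.5 VM, at a log2 fold change of -1.08 ± 0.25 (SE, adjusted p = 5.80e-04). Srd5a2, whose product turns testosterone into dihydrotestosterone, had 3 counts over the E13.5 SM samples and 3062 in E13.5 VM, a ratio of 1026 (interval 351 to 4974, counting error only). Its E13.5 VM samples had 528, 482, 593, 579 and 645 normalized counts. Pdgfrb, a receptor for platelet-derived growth factor, changed by -0.69 ± 0.09 and Kit, the stem cell factor receptor, by -1.30 ± 0.15 (log2 fold change ± SE).

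Among genes of Hedgehog signalling 2 of 13 were higher and 4 lower (median -0.19), and 1 was higher without E13.5 SM replicate 1 or 4 or E13.5 VM replicate 3. Hhip, a target and decoy receptor, fell by 2.65 and Gas1, a co-receptor, by 1.31 on the log2 scale, and Gli1, the usual readout, had 158 ± 28.6 normalized counts in E13.5 SM, against 326 ± 126 in E13.5 VM (-1.04 ± 0.21).

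Among neurotrophic genes the ligands that were called were all lower in E13.5 SM, while receptors went both ways. Of 16 genes 5 were higher and 7 lower (median -0.49). The ligands Bdnf (-3.50 ± 0.29) and Gdnf (-2.29 ± 0.29) fell. The receptors Ntrk3 (4.42 ± 0.15), Ntrk2 (4.32 ± 0.15) and Ret (3.89 ± 0.24, or 4.48 without the 3 samples that stood apart) rose, and Gfra3, a co-receptor of glial and neuronal precursors, fell (-4.62 ± 0.16). Ntrk2 was the most counted of them. E13.5 VM samples had 405, 428, 304, 358 and 342 normalized counts of Ntrk2, and E13.5 SM samples had 7193, 6988, 7345, 7435 and 7589. No sample of E13.5 VM came near the lowest of E13.5 SM. Ret is a receptor of ganglion neurons, whose other genes were raised in E13.5 SM too, and the part of those cells in this value was not tested.

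Axon guidance genes had 11 of 48 higher and 9 lower (median -0.06). Unc5c, a netrin receptor gene, rose to 4820 ± 432 from 422 ± 45.7 normalized counts, the neuropilin gene Nrp2 to 21896 ± 2176 from 3335 ± 317 and the ephrin gene Efnb2 to 7930 ± 945 from 1479 ± 352. Ntn4 (-3.75 ± 0.17), Efna3 (-2.42 ± 0.16) and Epha4 (-1.68 ± 0.15) fell. Chemokines, which guide leukocytes and other migrating cells, had 6 of 18 genes higher and 6 lower (median 0.11). Cxcl12 was the most counted. Cxcl12 showed 6333, 6466, 6952, 7478 and 7518 normalized counts in E13.5 SM, against 534, 486, 613, 602 and 572 in E13.5 VM. Cxcl12 was thus higher in E13.5 SM by a log2 fold change of 3.63 ± 0.11 (SE, adjusted p = 1.03e-18), with no overlap between samples. Cxcl13, a B cell attractant, was more variable, at 681, 1532, 857, 736 and 1071 normalized counts in E13.5 SM replicates 1 to 5 against 6.57 to 18.7 in E13.5 VM (6.38 ± 0.38). Its highest value was in replicate 2, and the groups did not overlap. Cxcl5 (7.62 ± 0.67) and Ccl11 (4.99 ± 0.35, or 5.60 without the 3 samples that stood apart) rose and Cxcl14 (-6.47 ± 0.44) fell. Cxcl5 stood at 9.19 without E13.5 VM replicate 5 and Cxcl14 at -7.56 without E13.5 SM replicate 2.

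The genes of collagen I and most of the elastic fibre genes that were called were lower in E13.5 SM. In E13.5 SM 7 of 42 collagen genes were higher and 13 lower (median -0.18), and of 18 elastic fibre and crosslinking genes 4 were higher and 9 lower (median -0.56). Col1a1 went from 41202 ± 9633 to 12486 ± 2795 normalized counts and Col1a2 from 121553 ± 8927 to 54666 ± 4368. Col14a1, a collagen that sits on fibrils, fell by more. In E13.5 SM Col14a1 stood at 709.7, 1234, 788, 1066 and 1568 normalized counts, and in E13.5 VM at 9588, 9193, 9603, 11851 and 10202. Its log2 fold change was -3.23 ± 0.16 (SE, adjusted p = 1.37e-14), and the tissues did not overlap. Col7a1, the anchoring fibril collagen of skin, fell as well (-3.51 ± 0.28). Col5a3 (3.02 ± 0.23), Col6a6 (2.98 ± 0.25), Col13a1 (2.84 ± 0.19) and Col17a1 (2.81 ± 0.36) rose. Lox, which crosslinks collagen and elastin, fell (-1.72 ± 0.13) together with Eln (-1.66 ± 0.24), while the microfibril genes Fbn1 (1.46 ± 0.09) and Mfap5 (3.33 ± 0.28) rose.

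Basement membrane genes and metalloproteases leaned to E13.5 SM. Of 21 basement membrane genes 9 were higher and 2 lower (median 0.20). Nid2, a nidogen that links laminin to collagen IV, was among those that rose. The 5 samples of E13.5 SM held 13968, 15947, 15856, 20030 and 16974 normalized counts of Nid2, and those of E13.5 VM held 2957, 3555, 2725, 3030 and 2589. Every E13.5 SM sample lay above every E13.5 VM sample, and the log2 fold change was 2.48 ± 0.13 (SE, adjusted p = 1.31e-14). The laminin genes Lama1 (2.41 ± 0.27) and Lama2 (1.82 ± 0.15) rose and Lama3 fell (-2.48 ± 0.24). Of 40 metalloproteases and inhibitors 16 were higher and 5 lower (median 0.39). Of the 16, 8 were genes of the ADAMTS family, several of whose enzymes cleave proteoglycans. Adamts1 had 14976 to 18011 normalized counts in E13.5 SM, against 1941 to 3365 in E13.5 VM (2.86 ± 0.12). Adamts19 (4.12 ± 0.19), Adamts5 (4.02 ± 0.16) and Adamts15 (2.39 ± 0.16) rose too, whereas Mmp2, a gelatinase, fell (-1.55 ± 0.09).

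Proteoglycans and matricellular proteins had 17 of 43 genes higher and 14 lower (median 0.18), with large changes in both directions. The aggrecan gene Acan, a cartilage proteoglycan, rose by 5.95 ± 0.38, although the cartilage and bone list had 3 of 15 genes higher and 4 lower (median -0.70) and Runx2, the bone factor, fell (-3.16 ± 0.23). Kera, the keratocan gene known from the cornea, was raised in E13.5 SM. For Kera, normalized counts were 1471, 2547, 1788, 1649 and 2328 in E13.5 SM, compared with 103, 55.0, 56.5, 66.5 and 53.5 in E13.5 VM. With no overlap between the tissues, Kera had a log2 fold change of 4.88 ± 0.19 (SE, adjusted p = 1.23e-16). Its highest sample was again replicate 2. Tnr (5.18 ± 0.48) and Epyc (5.51 ± 0.46, or 6.56 without the 3 samples that stood apart) rose, and Fmod (-7.84 ± 0.48), Ogn (-3.21 ± 0.19) and Sdc2 (-3.04 ± 0.07) fell. Fn1, fibronectin, had 42619 ± 9793 normalized counts in E13.5 SM, against 10362 ± 3244 in E13.5 VM (2.04 ± 0.23, named after its values were seen). Cadherins, the adhesion molecules between cells, had 5 of 18 genes higher and 6 lower (median -0.71). Cdh3, P-cadherin, fell (-4.27 ± 0.34) and Cdh4 rose (2.59 ± 0.21). Cdh11, the cadherin of mesenchyme, went from 13268 ± 2818 in E13.5 VM to 21806 ± 791 in E13.5 SM (0.72 ± 0.12, named after its values were seen).

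Cell cycle genes were lower in E13.5 SM almost without exception. Of 24 tested 22 fell and 0 rose (median -1.25), and their sum was 2228 to 3105 CPM in E13.5 SM and 5280 to 5796 CPM in E13.5 VM, with no overlap. Mki67 is the usual marker of proliferation. Normalized counts of Mki67 came to 17216, 10297, 12862, 12835 and 14310 in E13.5 SM, and to 37017, 29927, 28726, 33811 and 30807 in E13.5 VM. All samples of E13.5 SM were lower than those of E13.5 VM, at a log2 fold change of -1.25 ± 0.10 (SE, adjusted p = 4.35e-11). Top2a (-1.25 ± 0.10), Ccna2 (-1.77 ± 0.08), Bub1 (-1.61 ± 0.09) and Birc5 (-1.92 ± 0.10) fell in like measure. Of 5 inhibitor genes, Cdkn1c was higher and Cdkn2c (-0.80 ± 0.11) lower. Cdkn1c, the imprinted inhibitor p57, was among the 10 genes with the highest TPM in E13.5 SM that are not mitochondrial. It had 4503 ± 583 TPM in E13.5 SM and 924 ± 126 in E13.5 VM. E13.5 VM samples had 21744, 20926, 18393, 13955 and 16499 normalized counts of Cdkn1c, and E13.5 SM samples had 61222, 94833, 63922, 66230 and 68083. That gave Cdkn1c a log2 fold change of 1.95 ± 0.12 (SE, adjusted p = 4.26e-13), and no sample of one tissue reached into the range of the other. The highest E13.5 SM value was in replicate 2, and all 5 were above every E13.5 VM sample.

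Other imprinted genes moved the same way. Of 20 tested 13 were higher and 2 lower (median 1.02). Plagl1, a zinc finger factor, had 58557 to 75865 normalized counts in E13.5 SM, against 9411 to 12294 in E13.5 VM (2.63 ± 0.13), and Peg10 had 23339 to 33442 and 3906 to 4902 (2.69 ± 0.15). Magel2 (3.70 ± 0.22), Asb4 (2.33 ± 0.15) and Dlk1 (1.01 ± 0.14) rose, Nnat (-1.79 ± 0.37) and Rtl1 (-1.04 ± 0.12) fell, and Peg3, with 136165 ± 5737 and 120936 ± 8240 normalized counts, was not called.

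Genes of autonomic neurons marked E13.5 SM. Of 25 tested 21 were higher and 1 lower (median 3.89), and the list summed to 534 to 627 CPM in E13.5 SM and to 45.7 to 61.0 CPM in E13.5 VM. Vip, the peptide transmitter of parasympathetic neurons, had few reads in skin. Vip showed 692, 842, 702, 647 and 1110 normalized counts in E13.5 SM, against 11.8, 1.04, 5.49, 0.875 and 1.88 in E13.5 VM. Vip was thus higher in E13.5 SM by a log2 fold change of 7.56 ± 0.52 (SE, adjusted p = 9.57e-12). Phox2a, a homeobox gene of autonomic neurons, had 1479 counts over the E13.5 SM samples and 3 in E13.5 VM, a ratio of 592 (interval 203 to 2872, counting error only). All 3 of the latter lay in E13.5 VM replicate 3, and without it the fitted log2 fold change went from 8.69 to 11.11, a value that is no bound since the remaining samples were at 0. Elavl3 (7.27 ± 0.51), an RNA-binding protein of neurons, and Stmn3 (8.08 ± 0.62), a stathmin, rose too. In skin these genes had so few reads that single samples moved their values, with Stmn3 at 8.75 and Vip at 8.28 without E13.5 VM replicate 1. Tubb3, neuronal tubulin, rose by 4.31 on the log2 scale (named after its values were seen), and Gata2, which is also a gene of blood and vessels, fell (-2.69 ± 0.20). Genes of Schwann cells did not follow. Of 15 genes 3 were higher and 4 lower (2 lower without E13.5 SM replicate 4 or 5 or E13.5 VM replicate 1, median -0.12), with sums of 245 to 286 CPM in E13.5 SM and 290 to 339 CPM in E13.5 VM, and Sox10, the glial factor, had 179 ± 45.8 and 326 ± 72.7 normalized counts (-0.86 ± 0.19).

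Blood and immune cell genes were lower in E13.5 SM. In the macrophage and leukocyte list 15 of 16 genes were lower (median -1.66), with sums of 97.6 to 135 CPM in E13.5 SM and 355 to 450 CPM in E13.5 VM. Mrc1 (-2.59 ± 0.11), Csf1r (-1.84 ± 0.08) and Tyrobp (-1.90 ± 0.19) fell. Mast cell genes were nearly absent from E13.5 SM, with 5 of 10 lower and 0 higher (median -4.99, or -4.51 with bounds) and sums of 11.95 to 17.3 CPM against 161 to 219 CPM. Cpa3, the carboxypeptidase of mast cells, carried most of the mast cell counts in skin. It ran from 11.7 to 26.8 normalized counts across E13.5 SM, against 2307 to 3145 across E13.5 VM. Cpa3 was thus lower in E13.5 SM by a log2 fold change of -7.03 ± 0.27 (SE, adjusted p = 1.91e-16), with no overlap between samples. Cma1, their chymase, went from 725 ± 149 to 0.767 ± 1.25 normalized counts. Erythroid genes summed to 1399 to 2194 CPM in E13.5 SM and 3215 to 6982 CPM in E13.5 VM, with 11 of 12 lower and 1 higher, or 7 lower without the 3 samples that stood apart. The exception was Klf1 (2.77 ± 0.35), the erythroid factor, whose direction differs from that of the globin genes. Haemoglobin alpha reads are split between near-identical copies, so the values of Hba-a1 (-1.73 ± 0.24) and Hba-a2 (-1.95 ± 0.29) are uncertain as single genes.

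Endothelial genes were modestly lower, 9 of 18 against 1 higher (median -0.60), with sums of 598 to 708 CPM in E13.5 SM and 851 to 937 CPM in E13.5 VM. Pecam1 changed by -0.66 ± 0.09 and Cdh5 by -0.71 ± 0.09. Lyve1, of lymphatic vessels and tissue macrophages, fell by more (-4.34 ± 0.38, or -5.17 without E13.5 SM replicate 5), and Vwf rose (1.60 ± 0.16). Among 14 smooth muscle and pericyte genes 4 were higher and 4 lower (median -0.38), and genes of each cell type went both ways. Of the contractile genes Acta2 (-2.20 ± 0.23) and Tagln (-3.16 ± 0.30) fell and Myh11 (1.65 ± 0.26) rose. Of the genes known from pericytes Rgs5 (3.68 ± 0.30), Kcnj8 (3.12 ± 0.25) and Abcc9 (2.59 ± 0.11) rose, whereas Pdgfrb (-0.69 ± 0.09) and Mcam (-0.66 ± 0.07) fell and Cspg4 (-0.10 ± 0.16) and Notch3 (0.43 ± 0.16) were not called (Cspg4 and Notch3 were named after their values were seen).

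Skeletal muscle genes had 7 of 24 lower and 0 higher (median -1.16), but their sums overlapped, at 165 to 934 CPM in E13.5 SM and 252 to 868 CPM in E13.5 VM. Without E13.5 SM replicate 1 there were 16 lower members, without any one of the other E13.5 SM samples or without E13.5 VM replicate 3 only 3 or 4, and without the 3 samples that stood apart 14. Epithelial genes were scarce in both tissues, at 29.2 to 37.7 CPM in E13.5 SM and 16.1 to 21.4 CPM in E13.5 VM for 23 genes tested, of which 2 were higher and 0 lower (median -0.40). Those 2 were Epcam (4.27 ± 0.50) and Trp63 (1.503 ± 0.36), while Krt5 and Cdh1, keratin 5 and E-cadherin, had mean normalized counts of at most 12.6 in either tissue. Of 5 melanocyte genes 0 were called, with sums of 13.47 to 17.1 CPM in E13.5 SM and 14.8 to 20.4 CPM in E13.5 VM. The plot of cell type sums gives these values sample by sample. How much of any difference above came from other cells in the dissected tissue was not tested.

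**Figure D5:**
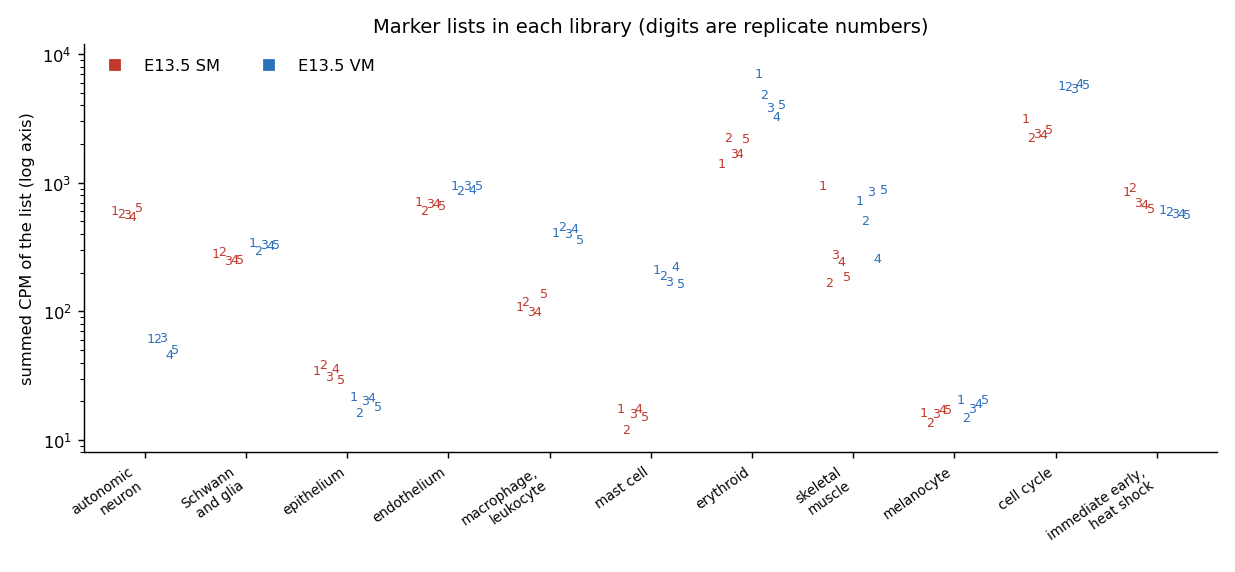
Summed CPM (log axis) of marker gene lists of other cell types in each sample, with digits for the replicate numbers, for E13.5 SM and E13.5 VM. Autonomic neuron genes are higher in all E13.5 SM samples (534 to 627 against 45.7 to 61.0 CPM), mast cell, macrophage and erythroid genes are lower, and skeletal muscle genes overlap, with E13.5 SM replicate 1 at 934 CPM.

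Immediate early and heat shock genes, which respond within minutes to handling and to growth factors, were higher in E13.5 SM: 11 of 20 rose and 4 fell (median 0.89). Their sum was 618 to 902 CPM in E13.5 SM and 558 to 606 CPM in E13.5 VM. Fos is the best known of them. In E13.5 SM Fos stood at 2464, 2855, 1643, 588 and 680.2 normalized counts, and in E13.5 VM at 307, 223, 196, 119 and 399.6. Its log2 fold change was 2.73 ± 0.42 (SE, adjusted p = 7.35e-06), and the tissues did not overlap. Fosb (2.84 ± 0.52, or 3.47 without E13.5 VM replicate 5), Egr1 (2.50 ± 0.28) and Jun (1.14 ± 0.10) rose, and Klf6 (-0.91 ± 0.11) and Ier3 (-1.14 ± 0.20) fell. The same enzyme step was described for both tissues, but each had its own dissection, whose part in these values cannot be told apart from that of the tissue. The adipogenic list had 5 of 16 genes higher and 2 lower (median -0.01), and 3 of the 5 were the early B cell factors Ebf1 (1.86 ± 0.13), Ebf2 (1.84 ± 0.30) and Ebf3 (1.58 ± 0.15).

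For some of these genes the E13.5 MM samples, which surrounded the mammary bud of the ventral skin, are set beside the values. Each difference from E13.5 MM reuses the samples of E13.5 SM or of E13.5 VM, so no test of likeness was made. Barx1 had 1.93 ± 1.38 normalized counts in E13.5 MM, with log2 differences of 10.19 for E13.5 SM minus E13.5 MM and -1.39 for E13.5 MM minus E13.5 VM (adjusted p = 1.79e-19 and 0.0571). For Aldh1a2 the mean was 61.5 ± 18.2 (5.22 and 2.13) and for Fgf10 234 ± 26.4 (4.38 and 1.39). The difference from E13.5 SM was the larger one for all 3. Hoxc8 had 1386 ± 95.4 there (-0.51 for E13.5 MM minus E13.5 VM) and Sim1 439 ± 41.5 (-6.90 and -2.31).

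Other genes had E13.5 MM at various places relative to the other tissues. Hoxc10, at 142 ± 14.3 in E13.5 VM, had 2.40 ± 1.62 normalized counts in E13.5 MM (-5.81 for E13.5 MM minus E13.5 VM, adjusted p = 3.59e-07). Pappa2 had 11767 ± 1451 against 1575 ± 594 in E13.5 VM and 15.1 ± 3.35 in E13.5 SM. Wnt5a had 7535 ± 448, with log2 differences of -5.19 for E13.5 SM minus E13.5 MM and 1.57 for E13.5 MM minus E13.5 VM (adjusted p = 7.05e-16 and 5.12e-07). Pitx1 had 22.8 ± 4.46, below both of the other tissues, with 7.45 and -4.36 for the same differences. The cell cycle gene Mki67 had 28915 ± 1497 (-1.10 and -0.15) and Cdkn1c 24304 ± 2708 (1.54 and 0.41).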

How the data were processed

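RNA-Seq libraries (Ovation SoLo, NextSeq 500) of 5 E13.5 SM and 5 E13.5 VM pools were compared within the 25 samples of the series. For the deposited counts the authors ran Salmon 0.99.0 on mm10, following FastQC 0.11.8, MultiQC 1.9, Trimmomatic 0.39 and SortMeRNA, and the file holds whole numbers per gene. The annotation release and the strand setting are not stated by those sources. Symbols and coordinates come from GENCODE M21 (35505 of 35880 genes had a symbol, and the 375 others held 0.0805% of counts). Of the genes named, Ccna2, Cpxm2, Csf1r, Fgfr2, Gli1, Igfbp7, Nid2, Nnat, Phox2a, Rarb, Runx2, Tagln, Tubb3 and the Hoxc genes overlap another gene, so their reads are less certain.

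Counts were scaled by TMM (factors 0.9231 to 1.094) to the mean library of 26505080 counts, and edgeR 4.0.16 (R 4.3.3, limma 3.58.1) fitted 1 mean per tissue to all 25 samples with robust quasi-likelihood (20 residual degrees of freedom), and p was adjusted by the method of Benjamini and Hochberg over the 17657 genes that its expression filter kept. The common dispersion was 0.04332. Each SE was derived from the F statistic (log2 fold change over the root of F) and is therefore not separate from the test. Depth was similar across samples, so counting error weighs mainly on genes near 0. A fold against 0 counts is a lower bound that sets 3 counts over the 5 samples in their place. Lists are described by counts and medians only. In simulated counts for this comparison (17282 genes in the step) the fit called 38% of genes changed 1.5-fold and 80% at 2-fold. It called 92% at 3-fold, 90% at 0.5-fold and 0.0117% of unchanged genes. Whether these shares hold for the measured counts, where 5338 of 17657 genes were called, was not tested.

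Named were, for each direction, the 15 called genes that changed most with a mean above 100 and no overlap of samples, up to 4 called members per list and direction and the first 3 members, genes the study names, the 10 highest TPM per tissue and up to 6 called homeobox genes per direction, of which a part is printed and some are not reported here. The comparison, the lists and the members were chosen with earlier results of these data known. Promoter windows were read from RefSeq tables for GRCm38.p6. Python 3.11.15, pandas 2.3.3, numpy 2.4.6, scipy 1.17.1 and matplotlib 3.10.9 were used. The alternatives tried were DESeq2 1.42.0, a fit of both tissues alone, the size factors of DESeq2, no expression filter, the replicate number as a block, a test against the fold threshold, a mean over both tissues, and each sample left out in turn.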

Additional observations from a re-analysis of the deposited data

Results flagged for a closer look

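Among the 5 samples of a tissue, a value was picked out where its gap to the nearest other sample took more than 0.71 of the range of the 5. Of 460 sets of 5 examined, 34 held such a value. For independent values of a normal distribution about 1 in 20 sets would. The counts were not put on a log scale and the sets share samples, so that rate need not hold here and no excess is read from it. The shares of the range are given in brackets, and no explanation was tested.

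E13.5 SM replicate 1 held the highest value of Birc5 (0.790), Fgf9 (0.761), Hhip (0.814), Lhx8 (0.739), Rxrg (0.783), Sostdc1 (0.729) and the sum of skeletal muscle genes (0.860). E13.5 SM replicate 2 held the highest value of Cdkn1c (0.796), Col17a1 (0.754), Eln (0.786) and Rspo1 (0.717). E13.5 SM replicate 2 held the lowest value of Tlx2 (0.772). E13.5 SM replicate 4 held the highest value of Dlx2 (0.765), Fzd7 (0.853), Igf2 (0.725) and Pdgfrb (0.768). E13.5 SM replicate 5 held the highest value of Fgf14 (0.760) and Lyve1 (0.829). Of these, Fgf9 stood at 83.3 normalized counts in replicate 1, against a median of 23.9, Rxrg at 60.9 against 19.9 and Hhip at 202 against 97.6, and in each case the sample was still below the E13.5 VM mean.

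E13.5 VM replicate 1 held the highest value of Abcc9 (0.763), Egr1 (0.741), Hba-a1 (0.716), Igfbp7 (0.759) and Kera (0.738). E13.5 VM replicate 2 held the highest value of Asb4 (0.732), Col5a3 (0.788), Ebf2 (0.813), Ebf3 (0.725), Hoxa10 (0.754), Hoxa2 (0.814), Igf1 (0.895), Rarb (0.827) and Sfrp2 (0.767). E13.5 VM replicate 2 held the lowest value of Hoxd8 (0.848). E13.5 VM replicate 4 held the highest value of Lgr5 (0.761). For Ebf2 that sample had 451 normalized counts against a median of 156, and for Sfrp2 5335 against 2325.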

How the results depend on the processing

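The count of 5338 called genes stayed within 1.5 times under every alternative tried. It was 4992 with the mean taken over both tissues, 5367 with DESeq2, 5343 with its size factors, 5290 with no expression filter, 5346 with a fit of both tissues alone and 3706 when genes were tested against the fold threshold itself. Leaving out 1 sample at a time gave 2669 to 2889 genes higher in E13.5 SM and 2455 to 2685 lower. The replicate number as a block gave 5332 calls, 5286 of them shared. Deviations of same-numbered samples correlated at -0.133, 0.1, -0.017, -0.079 and 0.106, and 2 of the 5 E13.5 SM samples correlated best with their own number. So few and weak correlations cannot tell whether samples of the same number shared a litter. After the data were seen, the 11 predicted repeat-like genes were left out, which gave 2711 higher and 2634 lower. Of 229 called genes named in the text 217 kept their call and direction throughout. Cdh11, Cdh5, Fgfr1, Fst, Lgr5, Mcam, Pdgfrb, Pecam1, Rxra, Sox10 and Tcf7l1 were not called in the test against the fold threshold, Tcf7l1 and Lgr5 also lost it with samples left out, Msx1 lost it only without the 3 samples that stood apart, and none of the 229 reversed. Ddx3y, which was not called, was called higher without E13.5 SM replicate 1.

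Some list counts moved by more than 1.5 times. In the test against the fold threshold the genes higher in E13.5 SM were 4 rather than 7 among FGF receptors and targets, 3 rather than 5 among Wnt antagonists, 1 rather than 3 among Wnt feedback genes, 5 rather than 9 in the BMP list, 1 rather than 3 in the cartilage list, 0 rather than 2 in the Hedgehog list and 0 rather than 1 in the TGF-beta list. The genes lower there were 3 rather than 6 in the BMP, BMP antagonist and TGF-beta lists, 7 rather than 11 among receptors and among erythroid genes, 5 rather than 9 among axon guidance and among endothelial genes, 3 rather than 5 among metalloproteases, 2 rather than 4 among smooth muscle and among immediate early genes, 1 rather than 4 among Schwann cell genes and 2 rather than 7 among skeletal muscle genes. With the mean over both tissues, 1 FGF ligand gene was lower rather than 2, 1 Wnt ligand gene higher rather than 2 and 0 erythroid genes higher rather than 1. With no expression filter 2 TGF-beta genes were higher and 3 skeletal muscle genes lower, and the fit of both tissues alone called 1 epithelial gene lower. The causes were not tested. Depth limits what can be said of genes near 0 in 1 tissue, where a single read moves the fitted fold.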

Other observations

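Among genes that the study itself names for these tissues, 14 of 32 were higher in E13.5 SM and 16 lower (median -0.59). The study chose them with these samples in hand, so the count is no independent evidence of a direction. Negr1, a cell adhesion gene known from neurons, went from 236 ± 124 normalized counts in E13.5 VM to 2470 ± 219.6 in E13.5 SM (3.39 ± 0.25, log2 fold change ± SE). Tnc, which encodes the matrix protein tenascin C, rose (1.34 ± 0.22), as did Adam10, a membrane protease that sheds ligands and receptors (1.03 ± 0.18). Slc9a3r1, a scaffold protein that tethers membrane proteins to the cell cortex, fell from 650.5 ± 74.2 to 120.5 ± 12.2 normalized counts (-2.43 ± 0.12). Tsku, a secreted modulator of Wnt and TGF-beta signalling, fell by less (-0.86 ± 0.07).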
